A study of Mus musculus with 12 samples.

Results

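The genes described here build the actin cytoskeleton and the focal adhesions that tie it to the matrix outside the cell. A list of 38 genes was chosen by name: actins, filament-binding proteins, myosin II subunits, assembly factors, Rhoa, Rhob, Rhoc and Rock1, the transcription factor Srf, integrins and adhesion proteins. Of these, 36 were measured among the 18193 genes tested, each read from the probe set that named it with the highest mean over 12 arrays. Rock2 and Ptk2 were not analysed here.

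The study measured total RNA of 2 striatal cell lines on Affymetrix mouse arrays, with 3 arrays in each of 4 groups. STHdhQ7/Q7 cells (Q7 cells here) came from embryonic mice with wild-type huntingtin, and STHdhQ111/Q111 cells (Q111 cells) from knock-in embryos whose huntingtin carries an expanded polyglutamine tract. Each line was measured at its growth temperature of 33 °C (untreated) and after heat shock for 6 h at 42 °C. Both lines were grown in DMEM with fetal bovine serum, penicillin, streptomycin, glutamine and G418. The genotypes are each represented by a single line, so genotype and line cannot be told apart. STHdh lines are known as conditionally immortalised cells that carry a temperature-sensitive large T antigen, active at the growth temperature, so heat and loss of its activity cannot be told apart either. The labels do not state whether replicates were grown as separate cultures; if not, the p-values cover technical spread between these samples alone.

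Actin filaments form a dynamic network that gives a cell its shape, tension and traction. Myosin II pulls on filaments bundled by alpha-actinin and filamin, and integrins pass the tension to the matrix through talin, vinculin, paxillin and zyxin at focal adhesions. Unpolymerised actin holds the cofactors MRTF-A and MRTF-B in the cytoplasm. When actin polymerises they enter the nucleus and act with serum response factor (SRF), which binds CArG boxes in the promoters of many of these same genes.

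Values below are log2 levels as deposited, and each effect is a log2 difference, given with its standard error (SE). A gene was called when limma's adjusted p (Benjamini-Hochberg, over all 18193 genes) was under 0.05, and "rose", "fell", "higher" and "lower" are used of calls. The members were bright genes, with a median level of 11.47 over all arrays against 7.05 for all genes. Cnn1, the smooth muscle calponin, was the member with a level (4.18) in the background range, which reached up to 5.14. The median spread (SD) of the members within a group was 0.14. Q111 heat shock replicate 3 stood apart from the other 2 arrays of its group, with SDs of the paired differences of 0.686 and 0.764. The study's other replicate pairs ran from 0.31 to 0.556, the highest being Q7 heat shock replicates 1 and 2. Heat shock moved the median of all genes on an array from 7.37 to 7.01 in Q7 cells and from 7.36 to 6.64 in Q111 cells, so results are also given for arrays centred on that median, which raises the median heat shock change of all genes to 0.35 in Q7 and 0.71 in Q111 cells. Of 8 markers of striatal projection neurons, 3 were above background range in Q7 cells at 33 °C (Tac1 at 7.38, Penk at 5.80 and Rgs9 at 5.55) and 1 in Q111 cells (Rgs9 at 5.49). Ppp1r1b, at 4.68 in Q7 and 4.88 in Q111 cells, and Drd2, at 3.06 in both, were within it. In bulk RNA fewer cells of a type and less RNA per cell cannot be told apart.

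Promoters are shown first because SRF and its cofactors recur in the results. RefSeq promoter sequence (mouse build GRCm38.p6) was matched for 31 of the 36 measured members, and not for Rock1, Tagln, Actb, Tgfb1i1 and Pxn. The 250 bases before each start site were searched on both strands for the CArG box, the SRF binding sequence, in its strict form with only A and T between the outer C and G pairs. It was found in 5 members, and in 482 of all 32851 promoters of that length (1.47%). The 5 promoters are given 5′ to 3′ on the strand of the gene, ending at the base before the start site, with the CArG box in capitals.
Myl9 (myosin regulatory light chain), chr2:156775214-156775463, plus strand: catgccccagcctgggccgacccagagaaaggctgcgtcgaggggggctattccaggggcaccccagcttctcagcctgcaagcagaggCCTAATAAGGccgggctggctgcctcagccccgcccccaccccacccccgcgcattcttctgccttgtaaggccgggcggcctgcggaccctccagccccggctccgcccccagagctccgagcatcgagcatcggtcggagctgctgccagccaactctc
Cnn2 (calponin 2), chr10:79988350-79988599, plus strand: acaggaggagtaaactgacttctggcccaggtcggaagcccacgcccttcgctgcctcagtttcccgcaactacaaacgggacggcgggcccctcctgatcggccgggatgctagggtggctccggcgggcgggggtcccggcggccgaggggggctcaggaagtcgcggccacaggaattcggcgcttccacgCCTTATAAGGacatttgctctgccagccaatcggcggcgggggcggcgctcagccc
Actg1 (cytoplasmic gamma-actin), chr11:120348496-120348745, minus strand: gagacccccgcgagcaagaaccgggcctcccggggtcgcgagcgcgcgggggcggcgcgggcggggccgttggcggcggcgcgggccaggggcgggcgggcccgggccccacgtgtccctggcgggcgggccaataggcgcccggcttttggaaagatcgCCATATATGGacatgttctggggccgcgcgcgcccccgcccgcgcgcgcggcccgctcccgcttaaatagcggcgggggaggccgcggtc
Vcl (vinculin), chr14:20929148-20929397, plus strand: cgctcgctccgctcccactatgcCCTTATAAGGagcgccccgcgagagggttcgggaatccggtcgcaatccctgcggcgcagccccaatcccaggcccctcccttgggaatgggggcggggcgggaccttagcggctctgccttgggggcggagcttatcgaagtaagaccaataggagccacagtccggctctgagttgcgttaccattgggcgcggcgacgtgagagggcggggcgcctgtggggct
Srf (serum response factor), chr17:46556163-46556412, minus strand: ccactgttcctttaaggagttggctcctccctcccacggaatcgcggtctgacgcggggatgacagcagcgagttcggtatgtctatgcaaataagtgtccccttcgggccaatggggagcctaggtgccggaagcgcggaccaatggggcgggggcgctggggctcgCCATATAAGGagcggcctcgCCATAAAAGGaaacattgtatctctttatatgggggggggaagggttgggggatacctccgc
The box lay 161 to 152 bases before the start of Myl9, 56 to 47 before Cnn2, 90 to 81 before Actg1 and 227 to 218 before Vcl. The Srf promoter held a pair of boxes, at 82 to 73 and at 62 to 53 bases before its start. The motif GGAATG, bound by TEAD factors, was found in 10 members and in 12.6% of all promoters, and GAANNTTC, a core of the heat shock element, in 1 member (Arpc2) and in 6.69%; none of these matches overlapped a CArG box. These matches describe letters in this window and show no binding.

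After heat shock more members fell than rose in each line. In Q7 cells 17 of the 36 members fell and 1 rose (Rhob), and in Q111 cells 17 fell and 2 rose (Rhoa and Tagln). Over all genes 18.1% were called lower and 12.3% higher in Q7 cells (30.4% in either direction), and 28.2% lower and 20.0% higher in Q111 cells (48.1% in either direction). The median change of the members was -0.44 in Q7 and -0.22 in Q111 cells, against 0.00263 and -0.0182 for all genes. Bright genes fell more often than others. Of the 9097 genes at or above the median level, 25.6% were called lower in Q7 cells and 41.6% in Q111 cells, with median changes of -0.12 and -0.36, so in Q111 cells the members' share and median stood near those of bright genes. Of the members, 14 fell in both lines, which is 82.4% of each line's list of 17. Without Q111 heat shock replicate 3, 16 members fell in Q111 cells, and without it and Q111 untreated replicate 2 (an alternative added after the data were seen) 12 fell. For all genes the shared calls made up 79.9% of the Q7 list and 51.3% of the Q111 list.

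**Figure D1:**
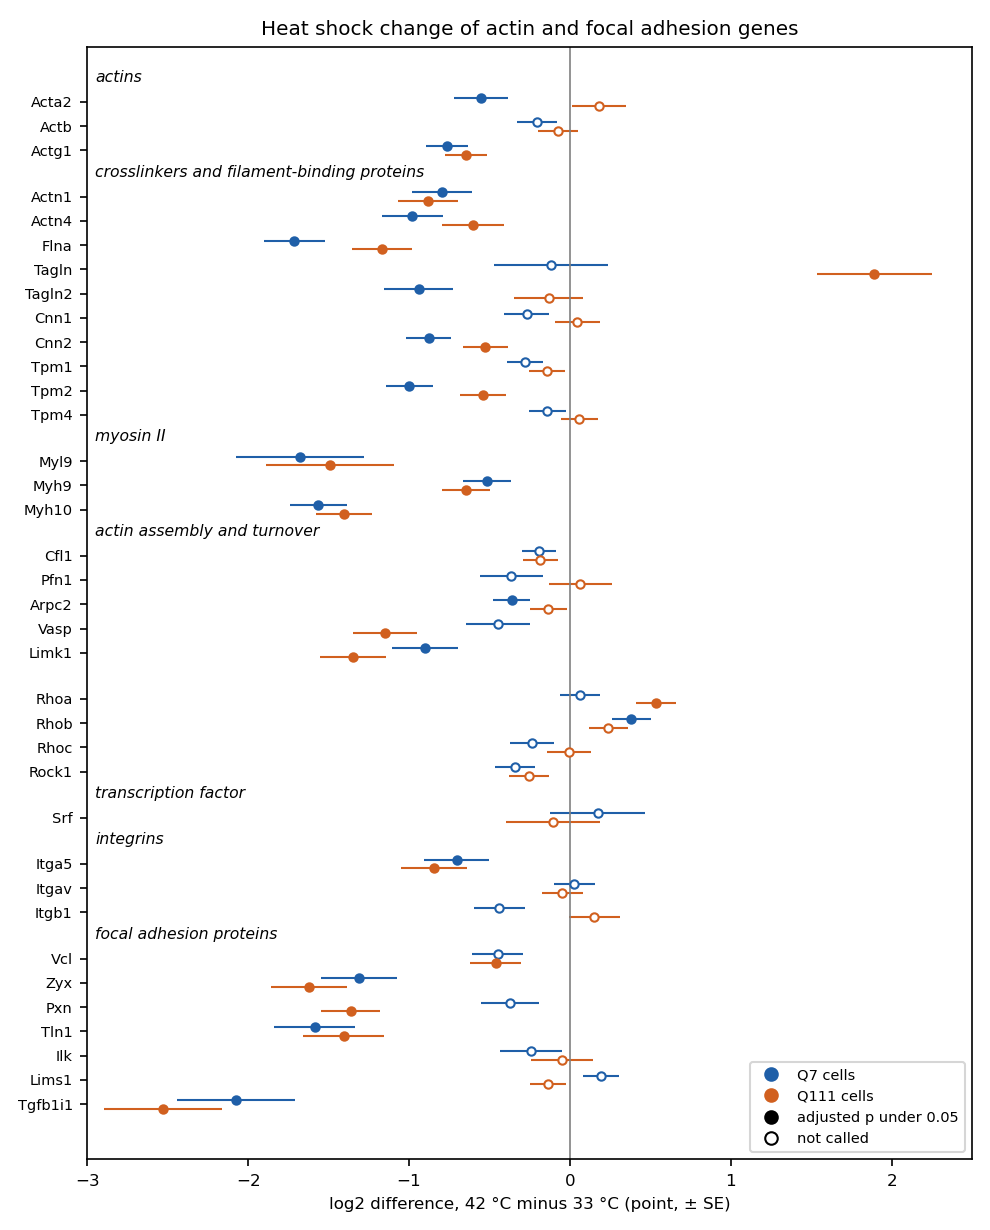
Heat shock changes (log2, 42 °C minus 33 °C, with SE) of the 36 members in Q7 and Q111 cells, ordered by role (Rhoa to Rock1 stand without a heading), with filled points for genes called by limma. Most points lie left of 0 in both lines; Tagln lies at -0.12 in Q7 and 1.89 in Q111 cells. With arrays centred on the median of all genes 18 of the 36 Q111 points are called higher and 8 lower.

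The falls reached from actin filaments to adhesions, and the 2 lines shared their deepest one. Tgfb1i1 encodes Hic-5, a LIM protein of focal adhesions that is a paralog of paxillin. Its level was 9.12, 9.15 and 8.73 in Q7 cells at 33 °C and 7.40, 6.33 and 7.03 after heat shock, and in Q111 cells it was 9.13, 9.91 and 9.57 at 33 °C and 7.85, 6.66 and 6.52 after heat shock. Every heated array lay below every unheated array of its line; over all genes the arrays of the temperatures did not overlap for 48.8% in Q7 and 54.7% in Q111 cells. The fall was 4.21-fold in Q7 cells (log2 change -2.08, SE 0.37, adjusted p = 0.00135) and 5.77-fold in Q111 cells (-2.53, SE 0.37, adjusted p = 0.000252).

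Among the actins, Actg1, the cytoplasmic gamma-actin, fell in both lines, by 0.76 in Q7 cells (SE 0.13, adjusted p = 0.00125) and by 0.65 in Q111 cells (SE 0.13, adjusted p = 0.00227). Acta2, the smooth muscle alpha-actin of contractile cells, read 13.47, 13.40 and 13.16 in Q7 cells at 33 °C and 12.87, 12.73 and 12.76 after heat shock. Its Q111 levels were 11.80, 12.43 and 12.21 at 33 °C and 12.45, 12.33 and 12.20 after heat shock. The heated Q7 arrays lay below the unheated ones, whereas the Q111 arrays overlapped. Acta2 fell in Q7 cells (-0.55, SE 0.17, adjusted p = 0.0269), a call that was lost without any 1 of Q7 heat shock replicates 2 and 3 and Q7 untreated replicates 1 and 2 (adjusted p = 0.08 to 0.0901). Its change in Q111 cells was 0.18 (SE 0.17, adjusted p = 0.391).

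Actb, the cytoplasmic beta-actin, differed with the probe set that read it. Its brightest probe set gave 13.32, 13.32 and 13.30 at 33 °C and 13.09, 13.17 and 13.06 after heat shock in Q7 cells, and 13.48, 13.22 and 13.36 against 13.27, 13.13 and 13.44 in Q111 cells. The change was -0.21 in Q7 (adjusted p = 0.257) and -0.07 in Q111 cells (adjusted p = 0.653), not called in either. The chip also carries control probe sets for the 5′ end, the middle and the 3′ end of this transcript, and a further probe set naming Actb. These were fitted with the genes as an addition made after the data were seen. The 5′ set fell by 1.75 in Q7 (SE 0.25, adjusted p = 0.000418) and by 1.13 in Q111 cells (SE 0.25, adjusted p = 0.00398). The middle set fell by 1.39 and 0.91, the 3′ set by 0.81 and 0.59, and the further set by 0.90 and 0.69, all called in both lines. The order of the falls ran from the 5′ to the 3′ end in both lines.

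**Figure D2:**
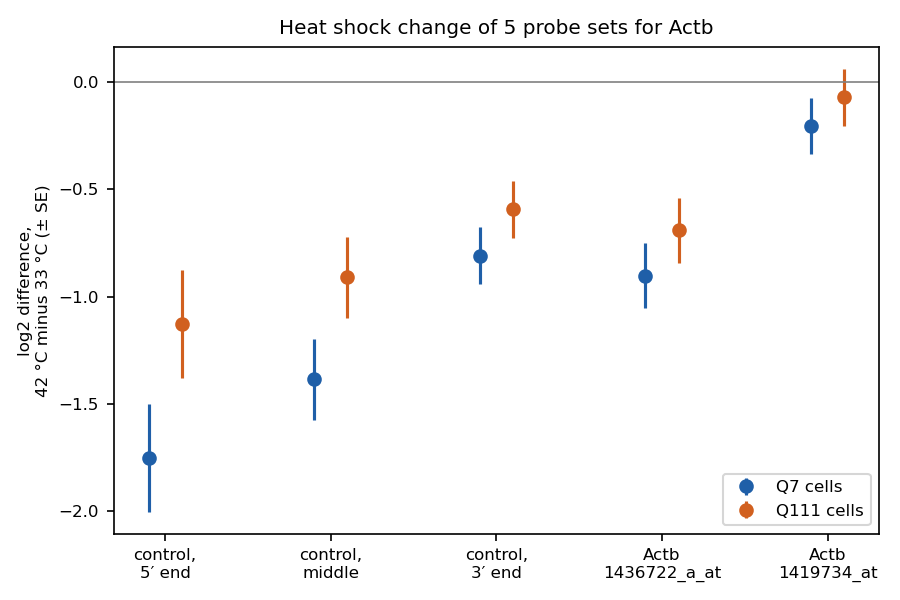
Heat shock change (log2, with SE) of 5 probe sets for beta-actin, in Q7 and Q111 cells. The 5′ control set shows falls of 1.75 and 1.13, and the probe set used for the gene lies at -0.21 and -0.07.

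The gap between the 3′ and 5′ control sets is a usual measure of RNA integrity and labelling, and it moved with heat. For beta-actin it was 0.54 ± 0.16 at 33 °C and 1.48 ± 0.12 after heat shock in Q7 cells, and 0.72 ± 0.36 and 1.25 ± 0.23 in Q111 cells (SD, n = 3 each). For Gapdh, a glycolytic enzyme, it was 0.70 ± 0.05 and 1.08 ± 0.10 in Q7 cells, and 0.85 ± 0.26 and 1.03 ± 0.10 in Q111 cells. With the beta-actin gap as a covariate in limma, the calls in Q7 cells went from 5525 to 436 over all genes and from 18 to 0 among the members, of which 10 were lower and 1 higher at an unadjusted p under 0.05, with a median change of -0.39. In Q111 cells 9 fell (Actn1, Flna, Limk1, Myh10, Pxn, Tgfb1i1, Tln1, Vasp and Zyx) and 3 rose. With the Gapdh gap 10 members fell in Q7 and 15 in Q111 cells. In Q7 cells neither the beta-actin gap nor the Gapdh gap overlapped between the temperatures. Each of these covariates and the treatment can therefore hardly be told apart there.

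Crosslinkers and filament-binding proteins held 10 members. In Q7 cells 6 of them fell, and in Q111 cells 5 fell and 1 rose. Flna encodes filamin A, which joins actin filaments into networks and binds integrins. Q7 cells gave 11.83, 12.23 and 11.90 at 33 °C and 10.41, 10.13 and 10.28 after heat shock, and Q111 cells 11.54, 11.87 and 12.02 at 33 °C and 10.93, 10.64 and 10.35 after it. No heated array reached the unheated arrays of its line. Flna fell 3.28-fold in Q7 cells (-1.71, SE 0.19, adjusted p = 7.11e-05) and 2.25-fold in Q111 cells (-1.17, SE 0.19, adjusted p = 0.000508).

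The alpha-actinins, which bundle filaments, fell in both lines: Actn1 by 0.79 in Q7 and 0.88 in Q111 cells, and Actn4 by 0.98 and 0.60. So did Cnn2, a calponin that binds actin and myosin (-0.88 and -0.53), and Tpm2, the beta-tropomyosin (-1.0 and -0.54). The Actn4 call in Q111 cells was lost without Q111 heat shock replicate 2 or 3 or Q111 untreated replicate 1 or 2 (adjusted p = 0.0543 to 0.0796). Of the other tropomyosins, which also lie along the filament, Tpm1 changed by -0.28 in Q7 and -0.14 in Q111 cells, and Tpm4 by -0.14 and 0.06, none called. Centring arrays on the median of all genes turned the Q111 changes of Actg1, Actn4, Cnn2 and Tpm2 to 0.08, 0.13, 0.20 and 0.18, none of them then called, and ended both calls of Actn1 (-0.44 in Q7 and -0.15 in Q111 cells).

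The transgelins are short calponin relatives that bind actin. Tagln (SM22), a marker of contractile smooth muscle and myofibroblasts, read 12.14, 12.27 and 12.22 in Q7 cells at 33 °C and 12.27, 11.95 and 12.05 after heat shock. In Q111 cells it read 8.84, 10.30 and 10.52 at 33 °C and 11.94, 12 and 11.40 after heat shock. The Q7 arrays overlapped, while each heated Q111 array lay above each unheated one. Tagln rose 3.72-fold in Q111 cells (1.89, SE 0.36, adjusted p = 0.00131), a call kept in all 27 alternatives run, where the change ran from 1.37 to 2.62. Its change in Q7 cells was -0.12 (SE 0.36, adjusted p = 0.843), with a 95% confidence interval from -0.90 to 0.66. Tagln2, the form made in many cell types, read 10.37, 10.81 and 10.36 in Q7 cells at 33 °C and 9.73, 9.49 and 9.50 after heat shock. Its Q111 levels were 10.35, 10.55 and 10.46 at 33 °C and 10.51, 10.66 and 9.80 after heat shock. Here the Q7 arrays separated and the Q111 arrays overlapped: Tagln2 fell in Q7 cells (-0.94, SE 0.22, adjusted p = 0.0064), and its change in Q111 cells was -0.13 (SE 0.22, adjusted p = 0.633), or 0.59 and called higher with arrays centred on the median of all genes.

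**Figure D3:**
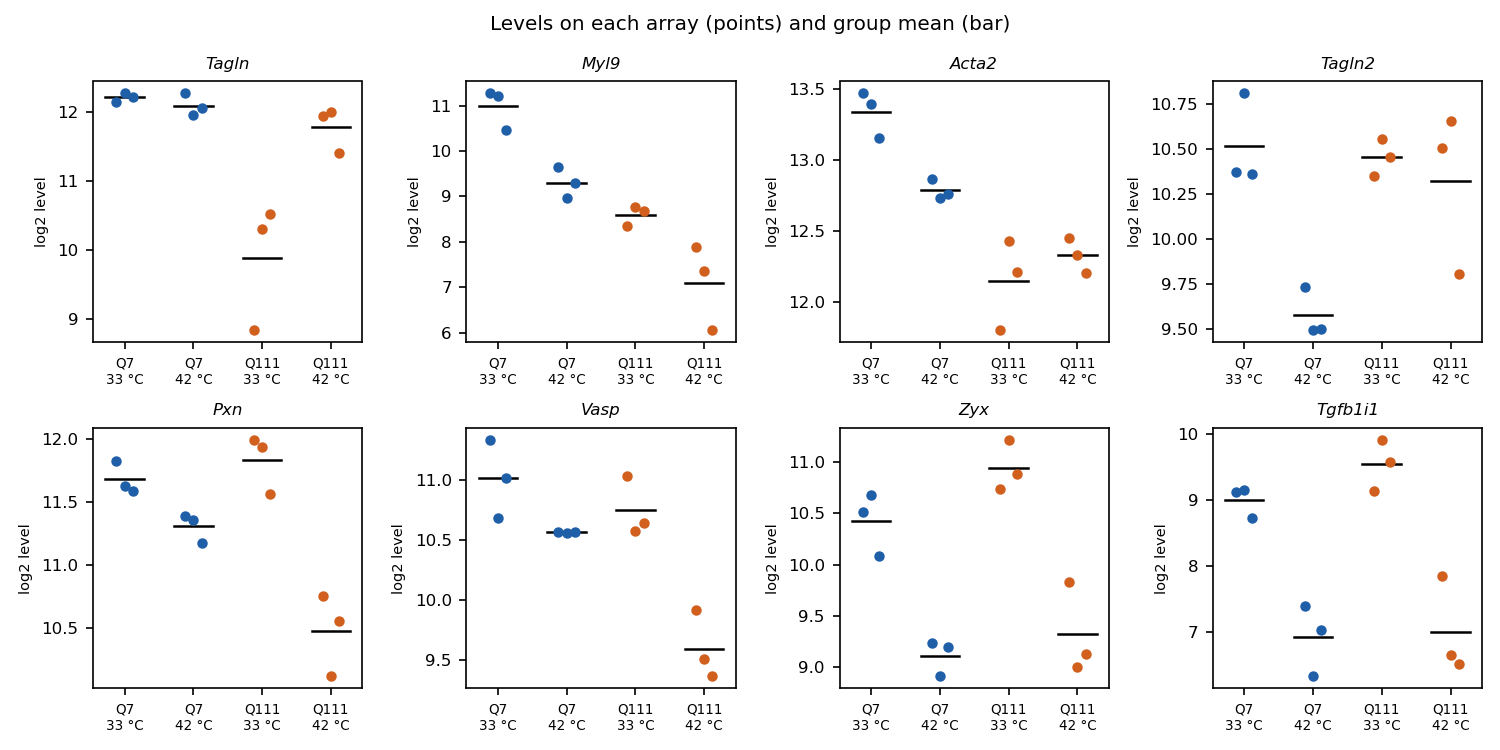
Level (log2, as deposited) of 8 members on each of the 12 arrays, in 4 groups (Q7 and Q111 cells at 33 °C and after heat shock); points are arrays and bars are group means. Tagln at 33 °C lies between 8.84 and 10.52 in Q111 cells and at 12.14 or above in Q7 cells, and Tgfb1i1 lies at 7.85 or below on every heated array.

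Each of the 3 myosin II genes fell in both lines. Myl9 encodes a regulatory light chain, the subunit whose phosphorylation switches the motor on. Its levels were 11.27, 11.21 and 10.46 in Q7 cells at 33 °C and 9.64, 8.98 and 9.29 after heat shock, and 8.35, 8.76 and 8.68 and then 7.89, 7.36 and 6.07 in Q111 cells. Both lines separated by temperature, and the unheated Q111 arrays already lay below the heated Q7 ones. Myl9 fell 3.2-fold in Q7 cells (-1.68, SE 0.40, adjusted p = 0.0078) and 2.81-fold in Q111 cells (-1.49, SE 0.40, adjusted p = 0.00992). Without both Q111 heat shock replicate 3 and Q111 untreated replicate 2, an alternative added after the data were seen, the Q111 change was -0.89 (adjusted p = 0.0538). Of the heavy chains of the non-muscle motor, Myh10 fell 2.96-fold in Q7 (-1.56, SE 0.18, adjusted p = 8.33e-05) and 2.65-fold in Q111 cells (-1.40, SE 0.18, adjusted p = 0.000105). Myh9 fell by 0.52 and 0.64, but its Q7 call was lost without any 1 of Q7 heat shock replicates 1, 2 and 3 and Q7 untreated replicates 1 and 2 (adjusted p = 0.0554 to 0.0802), and its Q111 change became 0.08 under median centring.

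Of the 5 genes of filament assembly and turnover, 2 fell in each line. Limk1, the kinase that inactivates cofilin, fell in both, by 0.90 in Q7 (SE 0.20, adjusted p = 0.00614) and by 1.35 in Q111 cells (SE 0.20, adjusted p = 0.000353). Vasp, which extends filaments at adhesions and the leading edge, read 11.33, 10.69 and 11.01 in Q7 cells at 33 °C and 10.56, 10.55 and 10.57 after heat shock, and 11.03, 10.58 and 10.64 and then 9.91, 9.51 and 9.37 in Q111 cells. Neither line's arrays overlapped between the temperatures, and the heated Q7 arrays were within a narrow band. Vasp fell 2.22-fold in Q111 cells (-1.15, SE 0.20, adjusted p = 0.000787), with a change of -0.45 in Q7 cells (SE 0.20, adjusted p = 0.116). With median centring its Q111 change was -0.43 and no longer called. Arpc2, a subunit of the Arp2/3 complex that starts filament branches, was called lower in Q7 cells (-0.36, adjusted p = 0.0344), but not without any 1 of the 6 Q7 arrays (0.0503 to 0.111). Cfl1 (cofilin), which severs filaments, and Pfn1 (profilin), which feeds actin to growing ends, were called in neither line, at -0.19 and -0.36 in Q7 and -0.18 and 0.06 in Q111 cells.

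Rhob, a short-lived stress-responsive GTPase, read 10.20, 9.99 and 10.16 in Q7 cells at 33 °C and 10.59, 10.43 and 10.49 after heat shock, and 10.28, 10.28 and 10.39 and then 10.58, 10.63 and 10.46 in Q111 cells. The heated arrays were above the unheated ones in both lines. It rose 1.3-fold in Q7 cells (0.38, SE 0.12, adjusted p = 0.0315) and changed by 0.24 in Q111 cells (SE 0.12, adjusted p = 0.12). The Q7 call was lost without any 1 of Q7 heat shock replicates 1, 2 and 3 and Q7 untreated replicates 2 and 3 (0.0545 to 0.122). Rhoa, the GTPase that drives stress fibres, read 12.16, 11.91 and 12.02 and then 12.10, 12.06 and 12.12 in Q7 cells, and 11.81, 11.59 and 11.79 and then 12.26, 12.37 and 12.18 in Q111 cells. It overlapped in Q7 cells and separated in Q111 cells, where it rose 1.45-fold (0.54, SE 0.12, adjusted p = 0.00459). A further Rhoa probe set rose by 0.97 in Q111 cells (adjusted p = 0.00524). Rhoc, a close relative of Rhoa, and Rock1, the kinase that activates myosin II downstream of RhoA, changed by -0.23 and -0.34 in Q7 and by -0.01 and -0.25 in Q111 cells, none called.

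Among the integrins, the receptors for the matrix, Itga5, the alpha subunit of the fibronectin receptor, fell in both lines by 0.70 and 0.85. Its Q7 call was lost without Q7 heat shock replicate 2 or Q7 untreated replicate 1 or 2 (adjusted p = 0.0625 to 0.0896), and with median centring its Q111 change was -0.12 and not called. Itgb1, the beta subunit shared by many integrins, changed by -0.44 (adjusted p = 0.057) and 0.15, and Itgav, the alpha subunit of vitronectin receptors, by 0.03 and -0.05. With the replicate number as a block Itgb1 was called lower in Q7 cells (adjusted p = 0.0473).

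Of the 7 focal adhesion proteins, 3 fell in Q7 and 5 in Q111 cells. Tln1 encodes talin, which activates integrins and carries the load to actin. Its levels were 11.00, 11.39 and 10.75 and then 9.55, 9.39 and 9.46 in Q7 cells, and 10.10, 10.83 and 10.40 and then 9.55, 8.73 and 8.83 in Q111 cells. Zyx, zyxin, is recruited to adhesions and fibres under tension and read 10.51, 10.68 and 10.08 and then 9.24, 8.91 and 9.20 in Q7 cells, and 10.74, 11.21 and 10.88 and then 9.83, 9.00 and 9.13 in Q111 cells. Neither gene's heated arrays reached the unheated ones of its line. Tln1 fell 3-fold in Q7 (-1.59, SE 0.25, adjusted p = 0.000708) and 2.65-fold in Q111 cells (-1.41, SE 0.25, adjusted p = 0.000974). Zyx fell 2.48-fold (-1.31, SE 0.24, adjusted p = 0.00163) and 3.08-fold (-1.62, SE 0.24, adjusted p = 0.000276).

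Paxillin, Pxn, a scaffold for adhesion kinases, read 11.83, 11.63 and 11.59 in Q7 cells at 33 °C and 11.39, 11.36 and 11.18 after heat shock, and 12, 11.94 and 11.56 and then 10.75, 10.11 and 10.55 in Q111 cells. Both lines separated by temperature, with the wider gap in Q111 cells. Pxn fell 2.57-fold in Q111 cells (-1.36, SE 0.18, adjusted p = 0.000156), and its change in Q7 cells was -0.37 (SE 0.18, adjusted p = 0.154). Vcl, vinculin, which reinforces the talin link to actin, was called in Q111 cells (-0.46, adjusted p = 0.0335) and missed the threshold in Q7 cells (-0.45, adjusted p = 0.0538). The Q111 call was lost without any 1 of Q111 heat shock replicates 1 and 2 and Q111 untreated replicates 1 and 3 (0.0583 to 0.117), and median centring turned the change to 0.27. Ilk, integrin-linked kinase, and its partner Lims1 (PINCH) changed by -0.24 and 0.19 in Q7 and by -0.05 and -0.14 in Q111 cells, none called.

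Scaling set how many members counted as lower. With arrays centred on the median of all genes, 11 members fell and 2 rose in Q7 cells, and 8 fell and 18 rose in Q111 cells. The 7 members that fell in both lines under that scaling were Flna, Limk1, Myh10, Myl9, Tgfb1i1, Tln1 and Zyx, each also called lower in both lines without it. In Q7 cells the calls of Acta2, Actg1, Actn1, Arpc2, Itga5 and Myh9 were lost. Over all genes the share of calls that were higher went from 40.4% to 70.1% in Q7 and from 41.5% to 82.5% in Q111 cells. With arrays centred on ribosomal protein genes 29 members fell in Q7 and 23 in Q111 cells, and the shares of higher calls were 25.1% and 20.8%.

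Other probe sets for the same genes were above background range for 9 of the 18 called members in Q7 and for 9 of the 19 in Q111 cells. In Q7 cells 10 of these 18 further sets had the same call, 8 were not called and 0 were called in the opposite direction by limma. In Q111 cells 12 of 19 had the same call, 4 were not called and 3 were opposite: a further set of Itga5 rose by 1.22 (adjusted p = 0.0304), of Myh9 by 0.45 (adjusted p = 0.0371) and of Tln1 by 1.25 (adjusted p = 0.0264). With the mean of all probe sets of a gene, Limk1 lost its calls in both lines (-0.26 and -0.23), as did Tln1 (-0.34 and -0.01), and Myh10 in Q111 cells (-0.35). The Q7 falls of Acta2, Arpc2, Itga5 and Tagln2 were also lost, so 11 of the 17 were kept. Actb, Cfl1 and Vcl were then called lower in Q7 cells, and Actb and Rock1 in Q111 cells. The probe sets used for 10 members (Acta2, Actg1, Myh9, Cfl1, Rhoa, Rhoc, Srf, Itga5, Pxn and Lims1) are of types that can also read other transcripts, so signal of relatives cannot be told apart there.

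At 33 °C few members differed between the lines. Acta2, Tagln and Myl9 were lower in Q111 than in Q7 cells, and 33 of 36 members were not called. These 3 calls are 8.33% of the members, against 10.8% of all genes called in either direction, 5.68% called lower and 5.11% called higher. The members' median difference was -0.02. From the levels given above, every Q111 array at 33 °C lay below every Q7 array for each of the 3 genes, as was so in one direction or the other for 27.1% of all genes. Myl9 was 5.21-fold lower in Q111 cells (-2.38, SE 0.40, adjusted p = 0.00185), Tagln 4.99-fold lower (-2.32, SE 0.36, adjusted p = 0.00101) and Acta2 2.29-fold lower (-1.19, SE 0.17, adjusted p = 0.000536). The Myl9 and Tagln calls were kept in all 27 alternatives, where the differences ran from -2.64 to -2.24 and from -2.64 to -1.79. The Acta2 call was kept in 26 and lost with the mean of all its probe sets (-0.76, adjusted p = 0.0945). All 3 calls were kept with arrays centred on the median of all genes, with the beta-actin gap or the Gapdh gap as a covariate, and with the replicate number as a block. The other members ranged from -0.60 to 0.54, none called.

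Marker sums of some cell types also differed between the lines at 33 °C, while those of smooth muscle and pericytes overlapped. The markers of smooth muscle and pericytes, where Acta2, Tagln and Myl9 are abundant, had summed linear levels of 1897 to 2712 in Q7 and 1977 to 2619 in Q111 cells, with 6 of 10 above background range in each. Of these markers only Cspg4 was called by limma, at 9.05 in Q7 and 7.48 in Q111 cells (-1.57, adjusted p = 0.000501). Pdgfrb, at 9.72 and 10.29, was not called. Myh11, the myosin that defines mature smooth muscle, was in the background range, at 4.36 and 4.75. Fibroblast markers summed to 25512 to 28411 in Q7 and 36918 to 40062 in Q111 cells, with 7 of 10 above background range in each. Neural progenitor markers summed to 3858 to 5346 in Q7 and 946 to 1487 in Q111 cells, with 7 and 4 of 9 above background range. Neuron markers summed to 2999 to 3817 in Q7 and 714 to 978 in Q111 cells. Most of that difference was in Stmn2, at 11.20 in Q7 and 4.63 in Q111 cells. Apart from it only Nefm (4.77 and 3.17, in the background range) was called among the neuron markers. Of the progenitor markers Sox2 was at 10.60 and 4.71, Pax6 at 9.59 and 5.00 and Nes at 9.28 and 5.68. These and Fabp7 (6.83 and 4.24) were called lower in Q111 cells. Notch1 (10.31 and 9.31), Msi1 (7.75 and 8.14), Sox1, Prom1 and Hes5 were not called. The part of these cell type differences in the contractile genes was not tested. With heat the smooth muscle and pericyte sum ran from 1006 to 1256 in Q7 and from 607 to 967 in Q111 cells, and the fibroblast sum from 23640 to 24207 and from 25680 to 28533. Neural progenitor markers summed to 6552 to 6879 in heated Q7 and 1250 to 1543 in heated Q111 cells. From 33 °C to heat shock the oligodendrocyte sum went from 1166 to 1280 down to 354 to 459 in Q7 cells and from 966 to 1148 down to 268 to 496 in Q111 cells. That of microglia and macrophages went from 1036 to 1568 down to 386 to 546 in Q7 cells and from 1085 to 1175 down to 467 to 738 in Q111 cells. The endothelial sum went from 739 to 1312 down to 272 to 309 in Q7 cells, and was 262 to 269 and then 177 to 266 in Q111 cells. Of the oligodendrocyte markers only Cnp was called, and it fell (-1.95 in Q7 and -1.78 in Q111 cells). Tmem119 alone fell among the microglia and macrophage markers (-2.21 and -2.14), and Flt1 alone among the endothelial markers (-2.44 and -1.08). Cx3cr1 and P2ry12 of the microglia and macrophage markers rose in Q111 cells, as did Pecam1, Kdr and Emcn of the endothelial markers. The part of the cell type markers in the heat shock changes was not tested.

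**Figure D4:**
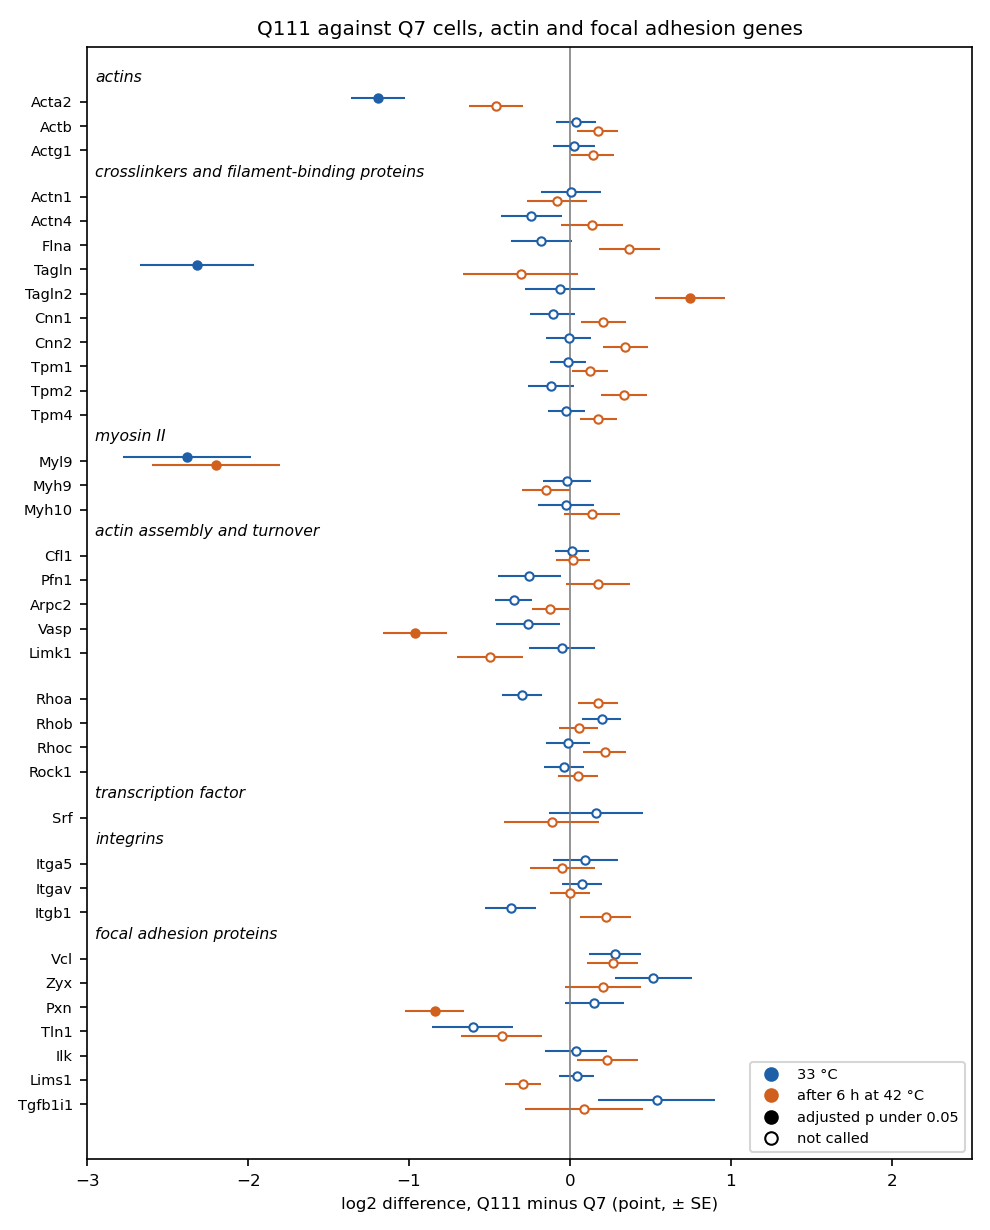
Difference between the lines (log2, Q111 minus Q7, with SE) of the 36 members at 33 °C and after heat shock, with filled points for genes called by limma. At 33 °C Acta2, Tagln and Myl9 lie at -1.19, -2.32 and -2.38; after heat shock Tagln lies at -0.31 and Myl9 at -2.20. With arrays centred on the median of all genes the points at 33 °C keep the same 3 calls, while 16 members are called higher after heat shock.

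After heat shock 3 members were lower in Q111 cells (Myl9, Vasp and Pxn) and 1 was higher (Tagln2). Over all genes 15.5% were called lower and 6.58% higher in that comparison (22.1% in either direction). The members' median difference was 0.10. Myl9 was 4.59-fold lower (-2.20, SE 0.40, adjusted p = 0.00235), Vasp 1.95-fold lower (-0.97, SE 0.20, adjusted p = 0.00502) and Pxn 1.79-fold lower (-0.84, SE 0.18, adjusted p = 0.00684), and no Q111 array overlapped the Q7 arrays in any of the 3 (37.2% of all genes did not overlap). Tagln2 was 1.68-fold higher (0.75, SE 0.22, adjusted p = 0.0286), but the call was lost without any 1 of Q7 heat shock replicates 1, 2 and 3 and Q111 heat shock replicates 1 and 2 (0.0503 to 0.0964). Acta2 and Tagln, lower in Q111 cells at 33 °C, differed by -0.46 (adjusted p = 0.0749) and -0.31 (adjusted p = 0.574) after heat shock. With median centring 16 members were called higher in heated Q111 cells and Myl9 alone was lower.

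Whether the lines responded differently to heat was tested as the heat shock effect in Q111 minus that in Q7 cells. Of the 36 members 1 differed upward (Tagln) and 1 downward (Pxn), against 1.21% and 4.51% of all genes (5.72% in either direction), and the members' median difference of effects was 0.15. For Tagln the effects of 1.89 and -0.12 differed by 2.01 (SE 0.50, adjusted p = 0.0411, 95% confidence interval 0.91 to 3.12). Its difference between the lines at 33 °C rests on the same unheated arrays and is not a separate observation. The call was lost without any 1 of the 6 Q7 arrays, Q111 heat shock replicates 1 and 2 and Q111 untreated replicate 2 (adjusted p = 0.0558 to 0.101), and with the replicate block (adjusted p = 0.0546). Without Q111 untreated replicate 1, the array with the lowest Tagln level (8.84), the difference was 1.49 (adjusted p = 0.0189). Over all alternatives the adjusted p ran from 0.0034 to 0.101, and 15 of 27 kept the call.

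For Pxn the effects of -1.36 and -0.37 differed by -0.99 (SE 0.26, adjusted p = 0.0482, 95% confidence interval -1.56 to -0.42). This call was lost without any 1 of the 6 Q7 arrays, Q111 heat shock replicates 2 and 3 and Q111 untreated replicates 1 and 2 (adjusted p = 0.0521 to 0.118). Over all alternatives the adjusted p ran from 0.0273 to 0.208, and 8 of 27 kept the call. A further Pxn probe set gave -0.57 in Q7 and -1.79 in Q111 cells, a difference of -1.22 (adjusted p = 0.0662). The contractile actin Acta2 had a difference of effects of 0.74 (SE 0.24, adjusted p = 0.0989, 95% confidence interval 0.22 to 1.26), Tagln2 of 0.81 (SE 0.31, adjusted p = 0.154) and Flna of 0.55 (SE 0.27, adjusted p = 0.269). With median centring the differences of Acta2, Flna, Tagln2 and Tpm2 were called higher beside that of Tagln, and that of Pxn was not called.

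Srf itself did not pass the test in either line. Its levels were 10.05, 9.45 and 8.70 at 33 °C and 9.73, 9.41 and 9.57 after heat shock in Q7 cells, and 9.85, 9.51 and 9.33 and then 9.77, 9.37 and 9.23 in Q111 cells. The arrays overlapped throughout, and the unheated Q7 arrays spread widest. The changes were 0.17 (SE 0.29, adjusted p = 0.713, 95% confidence interval -0.47 to 0.81) and -0.10 (SE 0.29, adjusted p = 0.789, 95% confidence interval -0.75 to 0.54).

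Of 5 SRF cofactors, 3 fell and 1 rose in each line. Over all genes 30.4% were called in either direction in Q7 and 48.1% in Q111 cells. Mrtfa, the actin-sensing cofactor MRTF-A, read 10.28, 10.99 and 10.32 and then 9.06, 8.63 and 8.78 in Q7 cells, and 9.88, 10.31 and 9.90 and then 7.16, 6.35 and 5.80 in Q111 cells. Mrtfb, its relative MRTF-B, read 10.51, 10.21 and 9.89 and then 8.84, 8.67 and 8.88 in Q7 cells, and 10.92, 10.45 and 10.47 and then 8.89, 8.10 and 8.46 in Q111 cells. Heated and unheated arrays did not overlap for either gene, and the heated Q111 arrays of Mrtfa lay lowest. Mrtfa fell by 1.71 in Q7 (SE 0.31, adjusted p = 0.00171) and fell by 3.59 in Q111 cells (SE 0.31, adjusted p = 1.24e-05). Mrtfb fell by 1.41 in Q7 (SE 0.22, adjusted p = 0.000732) and by 2.13 in Q111 cells (SE 0.22, adjusted p = 3.53e-05), though with the mean of all its probe sets the changes were -0.17 (adjusted p = 0.407) and -0.13 (adjusted p = 0.461).

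Elk1, the ternary complex factor that ties SRF to ERK signalling and competes with the MRTFs, read 9.80, 9.76 and 9.89 and then 8.79, 7.88 and 8.54 in Q7 cells, and 10.02, 10.51 and 10.15 and then 8.12, 7.99 and 7.03 in Q111 cells. It fell by 1.42 (SE 0.30, adjusted p = 0.00374) and by 2.51 (SE 0.30, adjusted p = 7.0e-05), with no overlap. Myocd, myocardin, the cofactor of heart and smooth muscle, went the other way. It read 4.93, 4.41 and 6.05 and then 5.65, 8.48 and 7.10 in Q7 cells, and 4.50, 5.04 and 5.71 and then 8.48, 8.30 and 9.87 in Q111 cells. From levels around the background bound it rose by 3.80 in Q111 cells (SE 0.68, adjusted p = 0.000978), without overlap. In Q7 cells the arrays overlapped and the rise of 1.95 (SE 0.68, adjusted p = 0.0496) was lost without any 1 of 9 arrays (adjusted p = 0.0536 to 0.194), those kept being Q7 heat shock replicate 1, Q7 untreated replicate 3 and Q111 heat shock replicate 3. Such rises were not particular to Myocd. From background range at 33 °C the markers Syt1 (2.96), Snap25 (2.48), Drd1 (2.35), Myh11 (1.96) and Bcl11b (1.82) also rose in Q111 cells. Others in that range, such as Drd2 and Gfap, were not called. Fhl2, a LIM cofactor that restrains MRTF and SRF, was not called, at -0.05 and 0.28; in Q111 cells it was 1.01 and called with median centring. The directions of Mrtfa, Mrtfb, Elk1 and Myocd in both lines were kept with arrays centred on the median of all genes, where the Q111 changes were -2.87, -1.40, -1.78 and 4.53. With the beta-actin gap as a covariate the Q7 calls of all 4 were lost (adjusted p = 0.294 to 0.813). The heat shock changes of Mrtfa differed between the lines by -1.88 (SE 0.44, adjusted p = 0.0323). That call was lost without any 1 of Q7 heat shock replicates 1 and 3, Q7 untreated replicates 1 and 3, Q111 heat shock replicate 2 and the 3 Q111 untreated arrays (0.0501 to 0.0843), and 14 of 27 alternatives kept it (0.00718 to 0.0843).

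**Figure D5:**
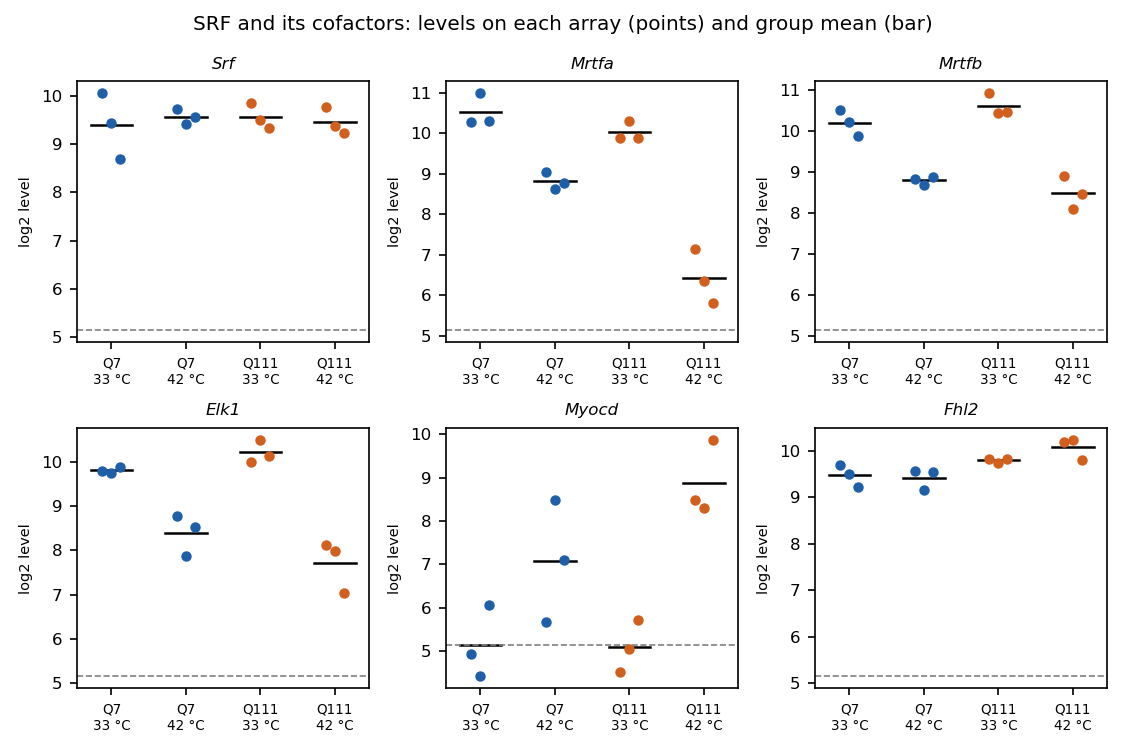
Level (log2, as deposited) of Srf and 5 cofactor genes on each of the 12 arrays in 4 groups; points are arrays, bars are group means and the dashed line is the bound of background range at 5.14. Srf overlaps between all groups, the heated Q111 arrays of Mrtfa lie between 5.80 and 7.16, and Myocd lies at 8.30 or above on the heated Q111 arrays.

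Of a wider list of 106 actin and adhesion genes, which names further members of the same roles, 96 were measured. In Q7 cells 31 of them fell and 7 rose (39.6% called, against 30.4% of all genes), with a median change of -0.25. In Q111 cells 49 fell and 10 rose (61.5% called, against 48.1% of all genes), with a median of -0.40, near that of the bright genes (-0.36). Among the bright genes 25.6% were called lower and 18.1% higher in Q7 cells, and 41.6% and 16.7% in Q111 cells. Of the wider list, 28 fell in both lines, 90.3% of the Q7 list and 57.1% of the Q111 list, against 79.9% and 51.3% for all genes. With arrays centred on the median of all genes 19 fell and 19 rose in Q7 cells and 19 fell and 40 rose in Q111 cells. The largest fall of the list in Q7 cells was that of Diaph2, a formin that elongates straight filaments, at -3.62 (SE 0.32, adjusted p = 2.06e-05), and it fell by 3.20 in Q111 cells (adjusted p = 2.47e-05). Nexn (nexilin, a filament-binding protein of adhesions) fell by 2.21 in Q7 cells (adjusted p = 0.00019) and Itgb3 (the beta subunit of a vitronectin receptor) by 2.01 (adjusted p = 0.00128). Sorbs3 (vinexin, a vinculin partner) fell by 2.53 in Q111 cells (adjusted p = 5.75e-05).

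Risers of the list included Arpc1a, a subunit of the Arp2/3 complex (1.28, adjusted p = 0.000638), and Csrp1, a LIM protein of actin bundles (1.13, adjusted p = 0.00111), in Q7 cells. In Q111 cells the integrin subunits Itga9 (2.16, adjusted p = 0.000338) and Itgb8 (2.04, adjusted p = 0.000122) rose. Each of the Diaph2, Nexn, Itgb3, Sorbs3, Arpc1a, Csrp1, Itga9 and Itgb8 changes kept its direction and its call under median centring. With the beta-actin gap as a covariate the Q7 calls of Nexn (adjusted p = 0.0761), Itgb3 (0.243), Arpc1a (0.12) and Csrp1 (0.444) were lost, and with the Gapdh gap that of Csrp1 (0.0601).

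Between the lines at 33 °C the wider list had 10 genes lower and 2 higher in Q111 cells, 12.5% of the list against 10.8% of all genes. Tln2, the second talin, was lower by 2.76 (adjusted p = 5.87e-05), as was Itga7, the laminin receptor subunit of muscle (-2.76, adjusted p = 1.56e-05), and Itga3, another laminin receptor subunit, was at -1.65 (adjusted p = 0.000102). Crk, an adaptor of adhesion signalling, was higher by 0.84 (adjusted p = 0.000878), and Actg2, the enteric smooth muscle actin, by 0.77 (adjusted p = 0.018) at levels in the background range, a call lost without any 1 of 4 arrays (Q7 and Q111 untreated replicates 2 and 3, 0.0586 to 0.0813). After heat shock 24 were lower and 4 higher in Q111 cells, 29.2% of the list against 22.1% of all genes. Of the bright genes 23.0% were called lower and 7.1% higher, so the list's share stood near theirs. Mrtfa (-2.39, adjusted p = 0.000293), Tln2 (-2.33, adjusted p = 0.000212) and Parvb, a parvin that links integrin-linked kinase to actin (-2.27, adjusted p = 0.000683), led the lower genes of the list. Rsu1, a partner of PINCH, was higher by 0.85 (adjusted p = 0.00648), Itga9 by 1.11 (adjusted p = 0.0309) and Fhl2 by 0.66 (adjusted p = 0.0204). With the mean of all probe sets Rsu1 was at 0.15 (adjusted p = 0.602) and Itga9 at 0.48 (adjusted p = 0.108). The Itga9 call was lost without Q7 or Q111 heat shock replicate 1 or 3 (0.052 to 0.117), and the Fhl2 call without Q7 heat shock replicate 2 or Q111 heat shock replicate 1 or 2 (0.0597 to 0.0683).

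Heat shock effects differed between the lines for 5 genes of the wider list, 5.21% of it against 5.72% of all genes. Beside Mrtfa these were Limk2, the relative of Limk1 (-1.42, SE 0.35, adjusted p = 0.0385), Wasf1 (WAVE1, an activator of the Arp2/3 complex; -1.15, SE 0.28, adjusted p = 0.0382), Ajuba, a LIM protein of adhesions and junctions (-0.96, SE 0.20, adjusted p = 0.0227), and Itgb8 (1.76, SE 0.37, adjusted p = 0.0216). Ajuba rose in Q7 cells (0.55, adjusted p = 0.0127) and fell in Q111 cells (-0.40, adjusted p = 0.0387), but with arrays centred on the median of all genes its Q111 change was 0.32 and not called. Its Q7 call was lost without Q7 heat shock replicate 2 or 3 (0.052 and 0.0596), and its Q111 call without Q111 heat shock replicate 2 or 3, Q7 untreated replicate 2 or Q111 untreated replicate 2 or 3 (0.0515 to 0.127). Itgb8 kept its call without any array but Q7 untreated replicate 2 (adjusted p = 0.0507), whereas 9 of the 12 arrays each ended the call of Limk2 when left out (adjusted p = 0.0585 to 0.105), the exceptions being Q7 heat shock replicate 2 and Q111 heat shock replicates 2 and 3. For Wasf1 8 did (0.0625 to 0.0926), the exceptions being Q7 untreated replicate 1, Q111 heat shock replicates 1 and 3 and Q111 untreated replicate 3. For Ajuba 5 did (0.0501 to 0.0745): Q7 heat shock replicate 3 and replicates 2 and 3 of both untreated groups. With arrays centred on the median of all genes Wasf1 (-0.78, adjusted p = 0.152) and Ajuba (-0.58, adjusted p = 0.186) were no longer called.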

How the data were processed

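Total RNA of 12 samples was hybridised to Affymetrix mouse arrays. The authors deposited log2 levels for each probe set, made with RMA, per the submitters' processing notes. Which software, version and chip definition they used is not given in the sources used here. RMA normalizes quantiles across arrays, so a shift shared by most genes can be reduced in these values. Of 45101 probe sets 64 were controls, 34945 were paired with 1 gene, 932 with several and 9160 with none in the annotation table given; 34741 were matched by gene identifier, and probe sets without a single named gene were not used. For each of 18193 genes, 9010 of them with several probe sets, the set of highest mean level was kept. The highest level of 27 probe sets for bacterial RNA, 5.14, was the bound of background range.

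limma 3.58.1 in R 4.3.3 fitted 4 group means to all 12 arrays and tested 5 contrasts, by two-sided tests adjusted over all genes after Benjamini-Hochberg (8 residual and 3.23 prior degrees of freedom). The fit was tested on simulated data. The members and all gene and marker lists were chosen with earlier results of these data known. Levels on every array are given for members called with the 4 largest rises and 4 largest falls in each heat shock and line contrast where arrays did not overlap, and for members called for the difference of effects; of the wider list, up to 3 rises and 3 falls per contrast. Actb, Srf and its cofactors were given by array after their values were seen. Deviations of same-numbered untreated arrays from their group means correlated at r = 0.402 to 0.577, so the labels' numbers were taken to pair those arrays. For Q111 arrays across temperatures r was 0.0968 to 0.241, and for Q7 arrays -0.34 to 0.146, not taken as paired. Between the heated arrays of the lines it was -0.497 to 0.345, also not taken as paired. The main fit used no pairing, and the replicate block covered all 12 arrays, heated ones included, so it does not test the pairing of untreated arrays alone. The results were also computed with the mean of a gene's probe sets, every probe set on its own, brighter genes, arrays centred on the gene median or on ribosomal protein genes, a second quantile normalization, an eBayes variance trend (plain or robust), array weights, the compared groups on their own, a replicate block, a threshold of 0.01, the beta-actin or Gapdh gap as a covariate, and every array left out in turn. The number of arrays limits the precision.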

Additional observations from a re-analysis of the deposited data

Results flagged for a closer look

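For 7 genes the heat shock effect differed between the lines in limma's test of the difference. The effect in Q111 cells minus that in Q7 cells was 2.01 for Tagln and -0.99 for Pxn among the 36 genes. In the wider list it was -1.88 for Mrtfa, -1.42 for Limk2, -1.15 for Wasf1, -0.96 for Ajuba and 1.76 for Itgb8. These are 5.56% of the 36 genes and 5.21% of the wider list, against 5.72% of all genes. The 7 differences rest on the same 12 arrays.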

How the results depend on the processing

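Of 4855 member values under other settings, 4561 kept a call and its direction or were uncalled in both settings, whatever their sign. A further 127 gained a call and 150 lost one, in the same direction. The remaining 17 turned sign and were called under the main setting, the other setting or both. Of these, 16 were heat shock changes in Q111 cells with arrays centred on the median of all genes: Actb 0.65, Actg1 0.0804, Actn4 0.13, Arpc2 0.59, Cfl1 0.54, Cnn2 0.20, Ilk 0.68, Itgav 0.68, Lims1 0.59, Myh9 0.0835, Rhoc 0.72, Rock1 0.47, Tagln2 0.59, Tpm1 0.58, Tpm2 0.18 and Vcl 0.27. The other was Itgav with the mean of all probe sets, at 0.85. Of the wider list's named genes Ajuba turned to 0.32 in Q111 cells with median centring. Median centring gave medians of the members of -0.0913 (heat in Q7), 0.51 (heat in Q111), 0.52 (difference of effects) and 0.48 (lines after heat), and ribosomal centring -0.64 and -0.50 for heat in Q7 and Q111 cells. In Q7 cells 11 members were lower and 2 higher with median centring, 29 and 0 with ribosomal centring, 27 and 2 with array weights, 0 and 0 with the beta-actin gap and 10 and 0 with the Gapdh gap. No member was higher in Q7 cells (0) with only the groups compared or at an adjusted p under 0.01. In Q111 cells 8 were lower and 18 higher with median centring, 1 was higher with ribosomal centring and 9 were lower with the beta-actin gap. For the difference of effects the higher count was 5 with median centring, 2 with a variance trend (with or without robust fitting), 8 with array weights and 0 with the replicate block, an adjusted p under 0.01 or the beta-actin gap. The lower count there was 0 with the mean of probe sets, each probe set separately, median centring, further quantiles, array weights, an adjusted p under 0.01 or either gap. Without Q111 heat shock replicate 3 and Q111 untreated replicate 2, added after seeing the data, these were 2 and 0. After heat shock the count higher in Q111 cells was 16 with median centring, 15 with array weights, 3 with a trend or robust fitting and 0 with the mean of probe sets, only the groups compared, an adjusted p under 0.01 or the beta-actin gap, and the count lower was 1 with median centring, 5 with a trend or robust fitting and 6 with array weights. With 1 array left out the counts ran from 13 to 18 lower and 0 to 1 higher (heat in Q7), 15 to 17 lower and 2 higher (heat in Q111), 0 to 2 higher and 0 to 1 lower (difference), 3 to 4 lower and 0 to 1 higher (lines after heat) and 3 lower at 33 °C. The replicate block kept 177 of 180 member results, lost Arpc2 in Q7 cells (adjusted p = 0.0527) and the Tagln difference (0.0546), gained Itgb1 in Q7 cells and changed no call at 33 °C. Over all genes the share of higher calls for the difference of effects went from 21.2% to 62.1% (median centring), 36.6% (further quantiles) and 36.2% (array weights), at 33 °C from 47.3% to 61.6% (ribosomal centring), and after heat shock from 29.8% to 72.6%, 43.8% and 44.4%. Levels near 5.14 cannot be told from background, and genes at the bright end of the arrays may show compressed changes.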

Other observations

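Single probe sets moved unlike the one that stood for their gene. A further Tpm1 probe set rose by 2.21 in Q7 (adjusted p = 3.23e-05) and by 1.98 in Q111 cells (adjusted p = 4.0e-05) after heat shock, while another fell by 0.81 in Q7 cells (adjusted p = 0.00517). Itgav had further sets that rose by 2.18 and 1.59 in Q111 cells and one that fell by 1.19 in Q7 cells. Which transcripts these sets read was not tested.

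Markers of other brain cell types were counted too. The number above background range in Q7 cells at 33 °C, Q7 cells after heat shock, Q111 cells at 33 °C and Q111 cells after heat shock was 5, 7, 4 and 8 of 10 for neurons, and 3, 4, 1 and 3 of 8 for striatal projection neurons. For astrocytes it was 5, 5, 5 and 6 of 8, for endothelium 1, 1, 1 and 2 of 8, for microglia and macrophages 2, 3, 3 and 4 of 8, and for the oligodendrocyte lineage 1, 1, 2 and 2 of 7.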
